A study of Homo sapiens with 10 samples.

Results

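The genes described here are 59 genes of DNA replication and of the making of its building blocks, taken by symbol from a list of 59 names. All 59 were among the 36432 usable symbols of the table, and all 59 were among the 13418 genes that could be tested. They were sorted by role into 15 licensing genes, 8 origin firing genes, 20 genes of DNA synthesis at the fork, 5 genes of fork protection, 5 genes of nucleotide synthesis and 6 genes that control S phase.

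Before a cell copies its genome, the origin recognition complex, CDC6 and CDT1 load the MCM2-7 helicase onto origins, a step called licensing. The kinase CDC7-DBF4, CDC45 and the GINS complex then turn the loaded helicase on, and polymerases, the sliding clamp PCNA, its loader RFC and the single-strand binding protein RPA copy the DNA. Deoxynucleotides for the copying come from ribonucleotide reductase, thymidylate synthase and related enzymes. Many of these genes are transcribed by E2F factors as cells pass from G1 into S phase, so their mRNA levels are commonly used to follow proliferation.

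RNA was sequenced from MDA-MB-231, a human triple-negative breast cancer line. BACH1 knockout (KO) clones were made with synthetic guide RNAs and Cas9 protein, and each single clone was identified by Western blot. The 4 groups were 3 BACH1 KO clones in DMEM with 0 g/liter glucose for 40 hours, the same 3 KO clones with 4.5 g/liter, 2 WT clones (the control cells) with 0 g/liter, and the same 2 WT clones with 4.5 g/liter. Each clone and glucose level gave 1 library, so the clones are the replicates and p-values measure the spread between clones.

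Values are TPM, transcript levels that are corrected for transcript length and scaled to the same total in each library, so levels of different genes can be compared. Sequencing depth cannot be read from TPM and is unknown, so no counting error is given. BACH1 mRNA was at 12.6, 23.9 and 17.2 TPM in KO clones without glucose and at 5.18, 2.84 and 3.42 TPM with it, against 19.7 and 20.6 TPM and 8.61 and 8.13 TPM in WT clones, so the transcript was still present in the KO clones and does not by itself check the genotype labels. VIM, a mesenchymal marker that is high in this line, was at 1321 to 2066 TPM, and ESR1, PGR and CDH1, which the line lacks, stayed under 1 TPM in all 10 libraries. ERBB2 at 14.3 to 37.2 TPM and EPCAM at 6.72 to 11.3 TPM were not at 0. Blood and endothelial markers reached at most 0.943 TPM.

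Without glucose, most of the replication and nucleotide genes fell, in BACH1 KO and in WT clones. The summed level of the 59 genes was 2475 ± 212 TPM at 0 g/liter, against 4026 ± 231 TPM at 4.5 g/liter, in KO clones (SD, n = 3). In WT clones it was 2596 ± 148 TPM without glucose, against 4111 ± 93.3 TPM with it (SD, n = 2). Between 59.9 and 64.7% of the summed level was left in each of the 5 clones. Only CDC6 and CCNE1 were higher without glucose in each of the 5 clones. In bulk RNA, fewer cells in S phase and less RNA per cell cannot be told apart.

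Each gene was tested with limma on log2(TPM + 1), a scale that understates the change of genes near 1 TPM, with 1 spread shared by the 4 groups. P-values were adjusted by the Benjamini-Hochberg method over all 13418 genes, and an adjusted p under 0.05 was the threshold for a call. In KO clones, 47 of the 59 genes were called lower and 1 higher, against 19.9% of all tested genes called lower and 9.05% called higher. In WT clones, 43 were called lower and 2 higher, against 15.9% and 7.47% of all tested genes. The median log2 fold change over the 59 genes was -0.74 in KO and -0.71 in WT clones, beside -0.15 and -0.17 over all tested genes. After median-ratio scaling, which moves the medians of all genes to 0.02 in both, 40 genes were called lower in KO and 29 in WT clones, against 8.65% and 5.33% of all tested genes. With that scaling 1789 genes of the whole table were called higher and 1161 lower in KO clones, in place of 1214 and 2664, and 1416 higher and 715 lower in WT clones, in place of 1002 and 2136. The members' medians were then -0.56 in KO and -0.50 in WT clones.

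The count in WT clones rests on a pair of clones. It was 15 without WT clone 1 and 24 without WT clone 2 at 0 g/liter, and 16 without WT clone 1 and 13 without WT clone 2 at 4.5 g/liter, with the lone clone left in that group assumed to vary like the other groups. The falls of MCM6, E2F1 and WDHD1 were among the WT calls lost without any 1 of the 4 WT libraries. Their log2 fold changes in those fits were -0.84 to -0.71, -0.91 to -0.64 and -0.78 to -0.69. The direction of the 59 genes rests less on any one library: 53 were lower without glucose in each of the 5 clones, against 41.7% of all tested genes. In 45 of the 59 genes, all 5 libraries at 0 g/liter lay below all 5 at 4.5 g/liter, against 23.3% of all tested genes. With the clone as a block, which compares each clone with itself, 52 genes were called lower in KO and 50 in WT clones, against 31.9% and 28.6% of all tested genes.

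**Figure D1:**
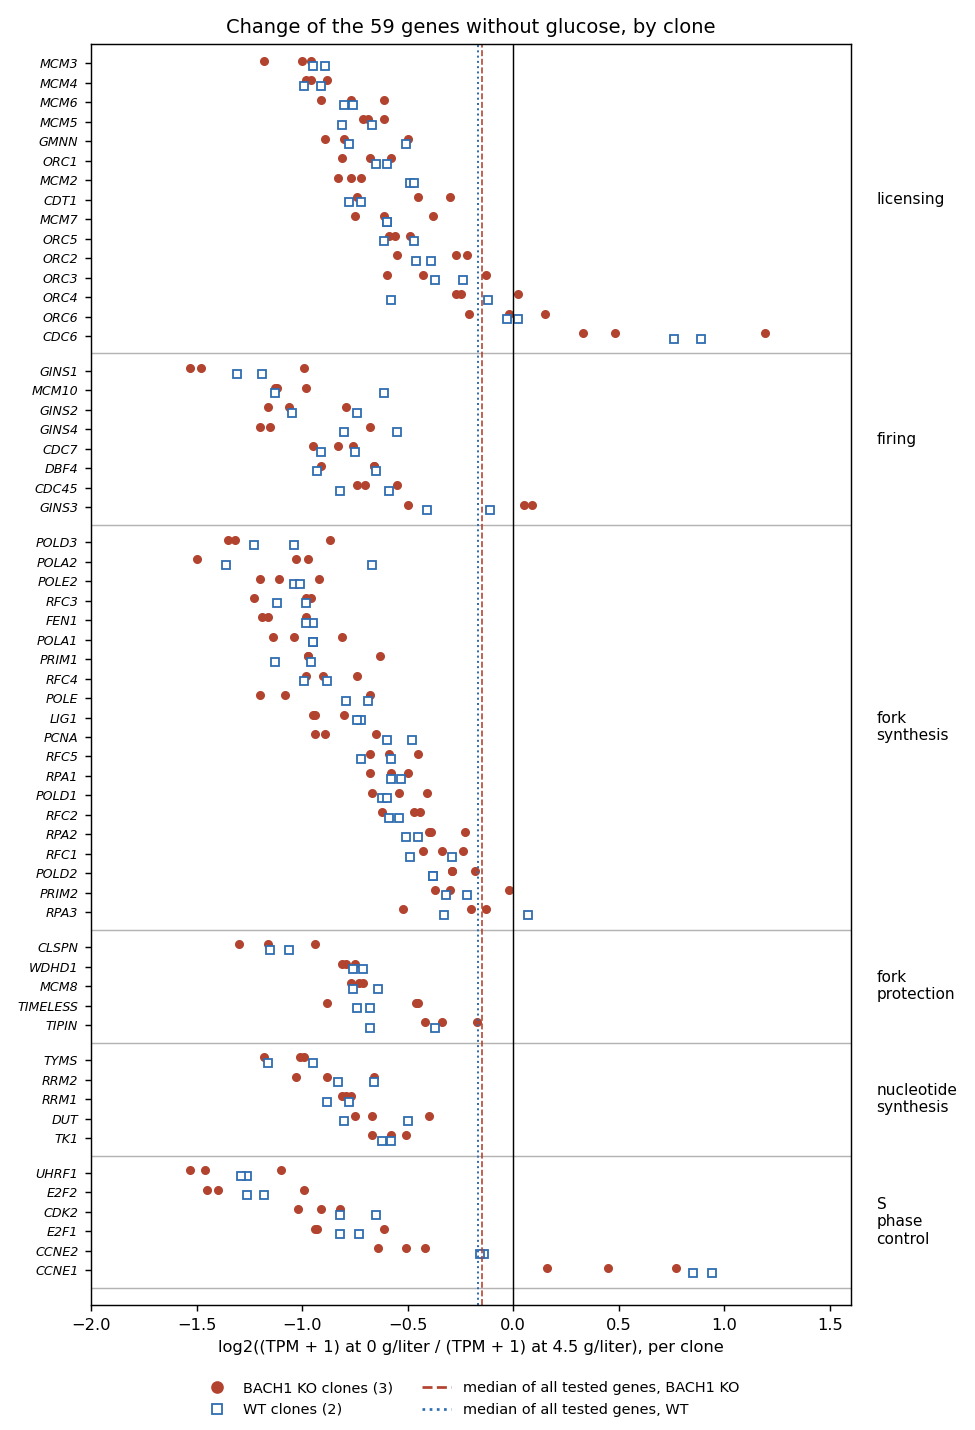
Change of each of the 59 genes without glucose (x axis, log2 of TPM + 1 at 0 over 4.5 g/liter), 1 row per gene by role, with 3 BACH1 KO clones as filled circles and 2 WT clones as open squares. The dashed and dotted lines are the medians of all tested genes (-0.15 in KO, -0.17 in WT), and most genes lie left of them while CDC6 and CCNE1 lie right of 0 in every clone.

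In 42 genes the fall was called in both genotypes. ORC1, ORC3, MCM2, PCNA and CCNE2 were called lower in KO clones alone, and TIPIN in WT clones alone, which does not show that the genotypes differ for them. The 11 genes called lower in neither were ORC2, ORC4, ORC6, CDC6, GINS3, GINS4, POLA1, PRIM2, RFC1, RPA3 and CCNE1.

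Promoter sequences were not used to choose the genes. Many genes of this kind are transcribed by E2F factors, as given above, so the share of E2F elements is not independent of the choice. RefSeq promoters (GRCh38.p14, 250 bases before the start and 50 from the start on) were found for 51 of the 59 genes, all except MCM4, MCM5, GINS4, POLD3, RPA2, RPA3, CCNE2 and CDK2. They were searched on both strands for 4 forms of the E2F element, TTTGGCGC, TTTCGCGC, TTTCCCGC and TTTGCCGC. Matches on opposite strands can overlap and were counted separately. At least 1 form was in 23 of the 51 promoters (45.1%), against 3.33% of all 27305 promoters and 5.48% of the 9860 promoters of tested genes. Of the 30 matches, 22 began within 60 bases of the start. They were found in 17 of 37 genes called lower in both genotypes (45.9%) and in 6 of the other 14 (42.9%), and CDC6 and MCM2 were among those with a match. The NF-Y letters CCAAT were in 54.9% of the 51 promoters, against 35.7% of all promoters and 36.8% of those of tested genes. The letters TTTGAA of the cell cycle homology region were in 3.92%, against 15.4% and 9.32%. A match is a description of the letters and was not tested as a binding site.

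The stretches below were chosen after the values were seen. They show the element in genes of licensing, fork synthesis, nucleotide synthesis and S phase control that fell, and in CDC6, which rose. All are from GRCh38.p14, 5′ to 3′ on the strand of the gene, with the E2F letters in capitals. TYMS is at chr18:657599-657636 (+), UHRF1 at chr19:4909472-4909500 (+), MCM3 at chr6:52284894-52284931 (-), MCM6 at chr2:135876507-135876610 (-), POLA2 at chr11:65261894-65261931 (+), LIG1 at chr19:48170436-48170473 (-), E2F1 at chr20:33686386-33686433 (-) and CDC6 at chr17:40287875-40287904 (+). All but that of CDC6, which spans the start site, lie before the start of the gene.
TYMS: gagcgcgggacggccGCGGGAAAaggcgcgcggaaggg
UHRF1: aaatgccgagttttcGCGGGAAAaaaatc
MCM3: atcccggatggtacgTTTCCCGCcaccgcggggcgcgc
MCM6: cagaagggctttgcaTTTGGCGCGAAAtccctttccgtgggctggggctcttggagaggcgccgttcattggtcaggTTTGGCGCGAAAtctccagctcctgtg
POLA2: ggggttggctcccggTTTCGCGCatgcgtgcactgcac
LIG1: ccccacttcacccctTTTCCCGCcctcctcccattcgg
E2F1: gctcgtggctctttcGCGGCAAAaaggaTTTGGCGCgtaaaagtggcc
CDC6: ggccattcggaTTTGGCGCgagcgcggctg
In MCM6 the same run of capitals occurred at 2 places, each with overlapping matches on both strands. MCM3 held a further match across its start site, which is not shown. E2F1 held 2 matches on opposite strands. The CDC6 match lay just after the start site, at positions 8 to 15.

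Among the licensing genes, 11 of 15 were called lower in KO and 8 of 15 in WT clones, and CDC6 was called higher in both, with class medians of -0.58 and -0.60. All 6 subunits of the MCM2-7 helicase were called lower in KO clones, and all but MCM2 in WT clones. MCM3 had 103, 117 and 113 TPM in KO clones without glucose, against 202, 234 and 258 TPM with it, and 125 and 136 TPM, against 242 and 251 TPM, in WT clones. The groups were far apart in both genotypes, with log2 fold changes of -1.05 (SE 0.10, limma adjusted p = 0.000266) in KO and -0.92 (SE 0.13, adjusted p = 0.00198) in WT clones. MCM4 was at 93.7, 129 and 112 TPM without glucose, against 186, 238 and 218 TPM with it, in KO clones. WT clones had 97.5 and 117 TPM of MCM4 without glucose, against 194 and 220 TPM with it. It thus fell by a similar amount, by 0.94 in KO and 0.95 in WT clones on the log2 scale (limma adjusted p = 0.00182 and 0.00642).

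MCM6, the least abundant helicase subunit, was at 25, 30.6 and 28.1 TPM in KO clones without glucose, against 38.8, 53.0 and 53.6 TPM with it. In WT clones it was at 27.1 and 29.6 TPM, against 47.9 and 50.7 TPM. All libraries without glucose lay below those with it (log2 fold changes -0.77 and -0.78, limma adjusted p = 0.00412 in KO and 0.0123 in WT clones). MCM2 had 36.7, 47.6 and 46.5 TPM in KO clones without glucose, against 66.0, 79.2 and 80.2 TPM with it. WT clones had 42.0 and 46.2 TPM of MCM2, against 59.3 and 64.2 TPM. MCM2 fell by 0.77 in KO clones (limma adjusted p = 0.00254), whereas the difference of -0.48 in WT clones missed the threshold (adjusted p = 0.0506) and passed it with the clone as a block (adjusted p = 0.00409). MCM2 was also called in WT clones without KO clone 1 at either glucose level and with the filter at a mean of 5 TPM.

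Of the 6 subunits of the origin recognition complex, which marks origins, 3 were called lower in KO clones and 1 in WT clones. Of all tested genes, 19.9% were called lower in KO and 15.9% in WT clones, so the count in WT clones is near that share. ORC5 was called lower in both genotypes, with log2 fold changes of -0.55 in KO and -0.54 in WT clones, and ORC1 and ORC3 in KO clones alone (-0.69 and -0.39). ORC6 stood at 20.3, 30.4 and 24.6 TPM without glucose, against 20.6, 27.4 and 28.6 TPM with it, in KO clones. In WT clones it stood at 25.3 and 26.3 TPM, against 24.9 and 26.9 TPM. The groups of ORC6 overlapped in both genotypes, its log2 fold changes were -0.03 and -0.00, and after median-ratio scaling they were 0.15 and 0.20. ORC4 had a fold change of -0.17 in KO and -0.35 in WT clones on the log2 scale, neither of them called, and the value in KO clones turned to 0.02 after that scaling. GMNN, the inhibitor of CDT1, fell to 60.6% of its level with glucose in KO and 63.8% in WT clones.

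CDC6, the loader that brings the helicase to origins, was at 110, 179 and 103 TPM in KO clones without glucose, against 78.4, 77.8 and 81.6 TPM with it. In WT clones CDC6 was at 154 and 149 TPM, against 82.5 and 87.5 TPM. Every library without glucose lay above every library with it. CDC6 rose by 0.67 on the log2 scale in KO clones (SE 0.18, limma adjusted p = 0.0213) and by 0.83 in WT clones (SE 0.22, adjusted p = 0.0257). Without KO clone 2 at 0 g/liter the value in KO clones was 0.42 (adjusted p = 0.0118). The call in KO clones was lost without KO clone 2 at 4.5 g/liter (adjusted p = 0.0649), that in WT clones without any 1 of the 4 WT libraries (adjusted p = 0.1 to 0.133), and both with no filter on low values (adjusted p = 0.0503 and 0.0561). Set against the mean of the 6 helicase subunits in the same library, a ratio formed after the values were seen, CDC6 was 1.62, 2.11 and 1.27 times as high in KO clones without glucose, against 0.640, 0.522 and 0.560 times with it. In WT clones the ratio was 1.97 and 1.78 without glucose, against 0.605 and 0.610 with it.

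CDT1, the partner of CDC6 in loading, fell in both genotypes. It was at 11.7, 10.5 and 14.2 TPM in KO clones without glucose, against 16.4, 18.3 and 17.7 TPM with it. Its level in WT clones was 14.1 and 13.3 TPM, against 25 and 22.4 TPM. The log2 fold changes were -0.50 in KO (limma adjusted p = 0.0152) and -0.75 in WT clones (adjusted p = 0.00887), and the groups did not overlap.

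**Figure D2:**
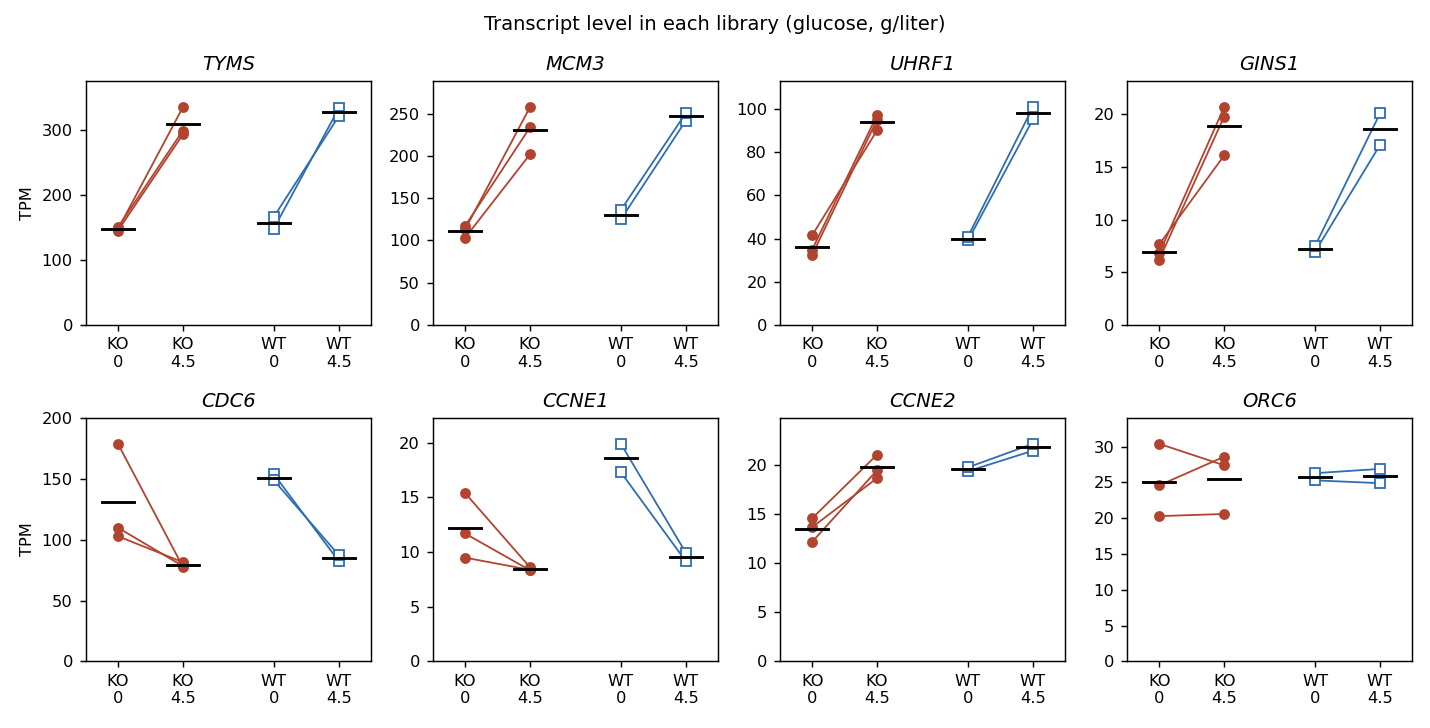
TPM (y axis, from 0) of 8 genes in each of the 10 libraries, for BACH1 KO clones (filled circles) and WT clones (open squares) at 0 and 4.5 g/liter glucose, with lines joining the libraries of 1 clone and bars at the group means. TYMS, MCM3, UHRF1 and GINS1 lie low without glucose in every clone, CDC6 and CCNE1 lie high, CCNE2 is lowest in the KO clones without glucose, and ORC6 overlaps between all groups.

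Of the 8 origin firing genes, 6 were called lower in each genotype, with class medians of -0.92 in KO and -0.81 in WT clones. GINS1, a subunit of the helicase activator GINS, had the steepest fall of the class. It was at 7.64, 6.79 and 6.2 TPM in KO clones without glucose, against 16.1, 20.7 and 19.8 TPM with it. In WT clones GINS1 was at 6.94 and 7.49 TPM, against 17.1 and 20.1 TPM. Its level fell to 36.4% in KO and 38.8% in WT clones (log2 fold changes -1.33 and -1.25, limma adjusted p = 0.000266 and 0.0015). GINS2, from the same complex, had 7.01, 10.7 and 8.92 TPM without glucose, against 16.8, 19.2 and 19.6 TPM with it, in KO clones. In WT clones GINS2 was at 9.93 and 10.1 TPM, against 17.2 and 21.9 TPM. It was called in both (log2 fold changes -1.0 and -0.89, limma adjusted p = 0.00209 and 0.0115).

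GINS3 and GINS4 did not follow in the same way. GINS3 had log2 fold changes of -0.12 and -0.26, neither called, and the value in KO clones was 0.06 after median-ratio scaling. GINS4 spread widely between KO clones, at 3.76, 9.03 and 5.50 TPM without glucose, against 6.61, 22 and 13.4 TPM with it. WT clones had 8.04 and 8.93 TPM of GINS4, against 12.3 and 16.3 TPM. GINS4 was lower in each of the 5 clones but overlapped between the KO groups, and its difference missed the threshold (limma adjusted p = 0.0782 in KO and 0.334 in WT clones) and passed it with the clone as a block (adjusted p = 0.000841 and 0.013). In KO clones GINS4 was also called without KO clone 1 at 4.5 g/liter.

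MCM10, which helps CDC45 and polymerase alpha onto the helicase, was at 13.8, 14.4 and 15 TPM in KO clones without glucose, against 31.3, 29.3 and 33.8 TPM with it. In WT clones it was at 15.2 and 22.4 TPM, against 34.6 and 34.6 TPM. The fall was 1.07 in KO (limma adjusted p = 0.000842) and 0.87 in WT clones (adjusted p = 0.00742) on the log2 scale. The kinase subunits CDC7 and DBF4 fell side by side, to 54.8 and 59.4% of their levels in KO clones and to 55.2 and 57.5% in WT clones. CDC45, the helicase cofactor, fell to 62.6 and 60.5%.

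Of the 20 genes of DNA synthesis at the fork, 16 were called lower in KO and 15 in WT clones, none was called higher, and the class medians were -0.84 and -0.69. POLD3, an accessory subunit of polymerase delta, fell most. It was at 16.3, 13.8 and 15.8 TPM in KO clones without glucose, against 30.7, 35.8 and 41.8 TPM with it, and at 15.8 and 14.8 TPM, against 33.6 and 36.3 TPM, in WT clones. The log2 fold changes were -1.18 (limma adjusted p = 0.000398) and -1.14 (adjusted p = 0.00192). The catalytic subunit POLD1 kept 68.0% of its level in KO and 64.7% in WT clones. POLD2, another accessory subunit and the most abundant of the 3 at 230 ± 12.7 TPM in KO clones with glucose, kept 83.8 and 76.9%.

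POLA2, a subunit of the polymerase that starts each new strand, was at 10.5, 12 and 7.72 TPM in KO clones without glucose, against 21.6, 25.6 and 23.7 TPM with it. The WT clones held it at 10.3 and 13.0 TPM, against 28.1 and 21.3 TPM. The groups were well separated (log2 fold changes -1.17 and -1.01, limma adjusted p = 0.00179 and 0.0113). Its catalytic partner POLA1 was at 5.37, 10.6 and 11.5 TPM in KO clones without glucose, against 10.1, 22.9 and 26.4 TPM with it. In WT clones POLA1 was at 9.38 and 10.2 TPM, against 19.0 and 20.7 TPM. KO clone 1 had the lowest POLA1 at both glucose levels, so the KO groups overlapped although POLA1 was lower in each clone. The differences of -0.99 and -0.95 missed the threshold (limma adjusted p = 0.0579 and 0.135) and passed it with the clone as a block (adjusted p = 0.000312 and 0.00126). POLA1 was also called in both genotypes without KO clone 1 at 4.5 g/liter. Of the primase subunits, PRIM1 fell to 52.8 and 46.4%, whereas PRIM2 (log2 fold changes -0.23 and -0.27) was not called.

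The clamp loader RFC, which opens PCNA and sets it on DNA, also moved unevenly. RFC3 was at 13.5, 9.27 and 11.4 TPM in KO clones without glucose, against 27.6, 23.1 and 23.1 TPM with it, and at 12.7 and 12.9 TPM, against 28.8 and 26.4 TPM, in WT clones. It fell to 46.4% in both genotypes (log2 fold changes -1.06 and -1.05, limma adjusted p = 0.00106 and 0.004). RFC2, RFC4 and RFC5 were called lower in both genotypes, and the large subunit RFC1, at -0.34 and -0.39, was called with the clone as a block (adjusted p = 0.0103 and 0.0156) and under no other alternative run. PCNA itself fell to 134 ± 25.4 TPM without glucose, against 237 ± 28.1 TPM with it, in KO clones (SD, n = 3). In WT clones PCNA was at 148 ± 19.2 TPM, against 215 ± 15.3 TPM (SD, n = 2), a difference that missed the threshold (limma adjusted p = 0.0664). PCNA was called in WT clones with the clone as a block (adjusted p = 0.00371), after quantile normalization and without KO clone 1 at 0 g/liter.

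Of genes that act in finishing the lagging strand, FEN1, the flap nuclease, fell to 46.2% of its level in KO and 50.9% in WT clones. LIG1, the ligase that seals the fragments, fell to 52.7 and 59.4%, and was at 21.8 ± 0.475 TPM, against 41.4 ± 2.49 TPM, in KO clones (SD, n = 3). POLE and POLE2 of polymerase epsilon, which copies the leading strand, fell to 49.3 and 46.4% in KO clones and to 58.8 and 48.0% in WT clones. Of the single-strand binding complex RPA, RPA1 fell by 0.59 and 0.56 and RPA2 by 0.34 and 0.48 on the log2 scale. RPA3, at -0.28 in KO and -0.13 in WT clones, was not called, and its value in WT clones was 0.08 after median-ratio scaling.

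Among the multi-subunit machines, the fall was therefore unequal among subunits of ORC, GINS, polymerase alpha-primase, polymerase delta and RFC. It was nearly equal in CDC7-DBF4 and in ribonucleotide reductase. With glucose, MCM3 at 231 TPM and MCM6 at 48.5 TPM were the highest and lowest helicase subunits in KO clones, a ratio of 4.77. Without glucose MCM7, at 118 TPM, was the highest there, and the ratio of the highest to the lowest was 4.24. In WT clones these ratios were 4.59 without glucose and 5 with it. For POLD1, POLD2 and POLD3 of polymerase delta, the ratio was 12.6 without glucose, against 6.39 with it, in KO clones. In WT clones it was 12, against 6.83. POLD3 fell most of them, and POLD2, also called lower in both genotypes, fell least. The log2 fold changes of POLD2 were -0.26 in KO (limma adjusted p = 0.0479) and -0.38 in WT clones (adjusted p = 0.0293). They stood beside medians of -0.15 and -0.17 over all tested genes, and the call in KO clones was near the threshold. Another subunit, POLD4, was left out of this ratio and was not called. It was at 26.4 TPM without glucose, against 23.4 TPM with it, in KO clones, and at 27.7 TPM, against 18.2 TPM, in WT clones. With glucose POLD4 lay below POLD3, so counting it would raise the ratios with glucose and leave those without glucose unchanged. The transcripts of POLE and POLE2 were nearly equal, with ratios of 1.04 and 1.06 without glucose, against 1.02 and 1.16 with it. POLE3 and POLE4, also subunits of polymerase epsilon, were left out of these ratios. POLE3 was called lower in both genotypes (log2 fold changes -0.47 in KO and -0.53 in WT clones). POLE4 was not called and did not fall (0.11 and 0.22), so the fall was unequal in this complex too. The subunit ratios are descriptions of group means and were not tested.

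**Figure D3:**
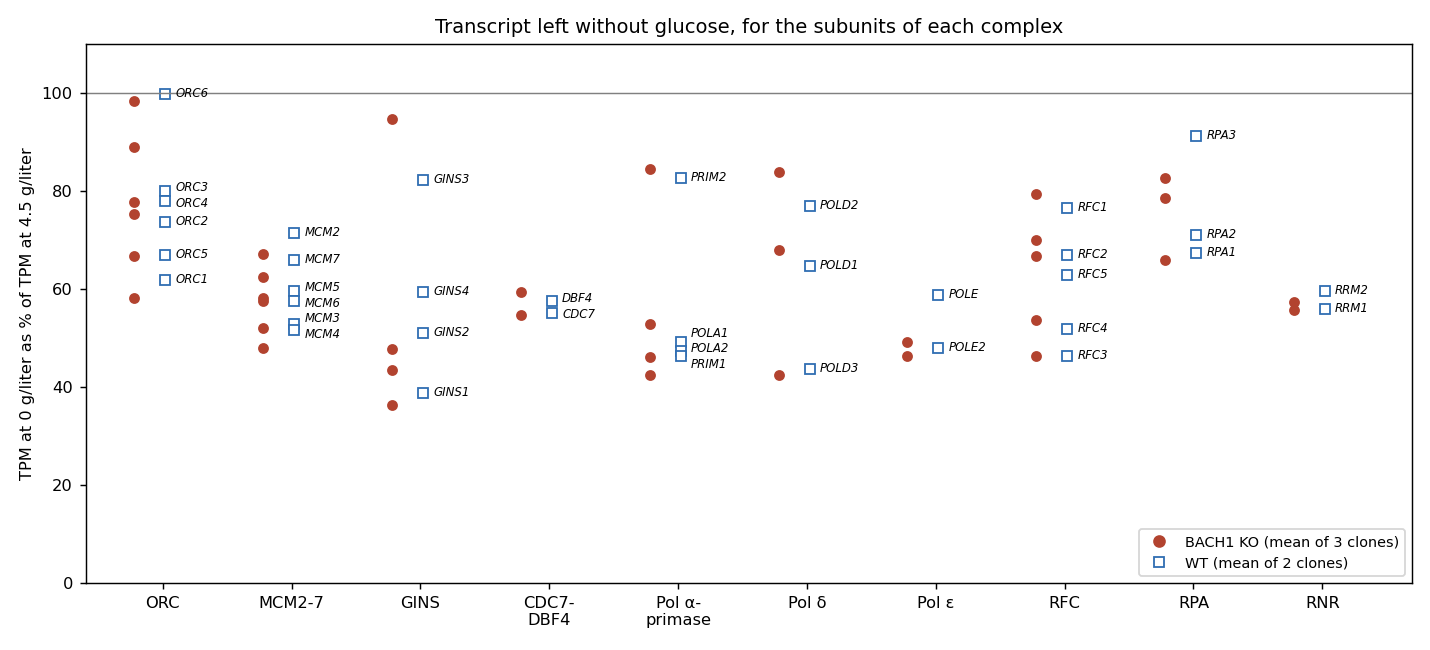
TPM left at 0 g/liter as a percentage of TPM at 4.5 g/liter (y axis, from 0) for subunits of 10 complexes. BACH1 KO group means are filled circles and WT group means are open squares, which carry the gene names. Polymerase delta is given without POLD4, and polymerase epsilon without POLE3 and POLE4. MCM2-7 subunits lie between 48.0 and 71.4%. ORC, GINS, polymerase alpha-primase, polymerase delta and RFC spread widely, and ORC6 lies at 98.3 and 99.7%.

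The 5 fork protection genes were called lower in WT clones, and 4 of them in KO clones (class medians -0.74 in KO and -0.71 in WT clones). CLSPN, the claspin mediator of the checkpoint kinase CHEK1, was at 8.57, 14.6 and 11.2 TPM in KO clones without glucose, against 22.6, 28.8 and 26.4 TPM with it. In WT clones it was at 11.3 and 12.3 TPM, against 24.6 and 28.5 TPM. It fell to 44.2% in KO and 44.4% in WT clones (log2 fold changes -1.13 and -1.10, limma adjusted p = 0.00209 and 0.0081). WDHD1, which couples the helicase to polymerase alpha, was at 15.3, 15 and 12.2 TPM without glucose, against 26.5, 27.1 and 21.8 TPM with it, in KO clones. WT clones had 15.1 and 16.1 TPM of WDHD1, against 26.3 and 27.0 TPM, so that its groups too stayed apart (log2 fold changes -0.79 and -0.73, limma adjusted p = 0.00225 and 0.0101).

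MCM8, a helicase used in recombination, was at 19.7, 21.4 and 23.4 TPM in KO clones without glucose, against 33.4, 35.7 and 40.7 TPM with it. WT clones had it at 22.3 and 21.5 TPM, against 35.5 and 37.1 TPM (log2 fold changes -0.74 and -0.70, limma adjusted p = 0.00153 and 0.0067). TIMELESS and TIPIN, which bind each other at the fork, differed in their calls. TIMELESS fell to 64.5 and 59.3% of its levels, and TIPIN was called in WT clones (-0.53) but not in KO clones (-0.31, limma adjusted p = 0.107), where it passed with the clone as a block (adjusted p = 0.039) and under no other alternative run. The call of TIPIN in WT clones was lost with no filter, after either of the other scalings, without any 1 of the 4 WT libraries, and without KO clone 3 at either glucose level or KO clone 2 at 4.5 g/liter.

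All 5 nucleotide synthesis genes were called lower in both genotypes, with medians of -0.79 in KO and -0.75 in WT clones, and their summed level was 511 ± 34.7 TPM without glucose, against 916 ± 35.0 TPM with it, in KO clones (SD, n = 3). In WT clones the sum was 546 ± 56.3 TPM, against 965 ± 24.1 TPM (SD, n = 2). TYMS, thymidylate synthase, was the most abundant of the 59 genes in KO and WT clones with glucose. It was at 147, 145 and 150 TPM in KO clones without glucose, against 335, 293 and 299 TPM with it, and at 148 and 166 TPM, against 333 and 321 TPM, in WT clones. The fall was 1.06 on the log2 scale in both (SE 0.08 and limma adjusted p = 8.61e-05 in KO, SE 0.10 and adjusted p = 0.000419 in WT clones). TYMS overlaps the antisense gene ENOSF1, and whether reads were assigned by strand is not given in the sources used here.

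Both subunits of ribonucleotide reductase, which makes deoxynucleotides, fell by like amounts. RRM1, the large subunit, was at 71.9, 67.8 and 59.6 TPM in KO clones without glucose, against 125, 120 and 102 TPM with it, and at 70.5 and 75.6 TPM, against 131 and 130 TPM, in WT clones. Its log2 fold changes were -0.79 (limma adjusted p = 0.00106) and -0.83 (adjusted p = 0.00316). RRM2, the small subunit whose level peaks in S phase, was at 117, 177 and 146 TPM without glucose, against 239, 279 and 271 TPM with it, in KO clones. In WT clones RRM2 was at 141 and 182 TPM, against 252 and 289 TPM. No library without glucose reached a library with it (log2 fold changes -0.86 and -0.75, limma adjusted p = 0.00467 and 0.0239). TK1, the thymidine kinase of S phase, fell to 66.1 and 65.8%, and DUT, which removes dUTP, to 65.6 and 63.6%.

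Among the 6 genes that control S phase, 5 were called lower in KO clones, and in WT clones 4 were called lower and 1 higher, with medians of -0.87 and -0.75. UHRF1, which brings the maintenance methyltransferase DNMT1 to newly copied DNA, had the largest fall of the 59 genes on the log2(TPM + 1) scale. It was at 41.5, 34.8 and 32.4 TPM in KO clones without glucose, against 90.2, 97.3 and 95.2 TPM with it, and at 39.1 and 40.9 TPM, against 95.3 and 101 TPM, in WT clones. The log2 fold changes were -1.36 (SE 0.10, limma adjusted p = 8.14e-05) and -1.28 (SE 0.13, adjusted p = 0.000456). CDK2, the kinase that drives S phase, was at 37.9, 47.8 and 50.1 TPM without glucose, against 77.7, 90.7 and 89.2 TPM with it, in KO clones. In WT clones CDK2 was at 54.3 and 49.9 TPM, against 85.7 and 88.9 TPM (log2 fold changes -0.92 and -0.73, limma adjusted p = 0.000957 and 0.0086).

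The transcription factor E2F1 was at 25, 31.7 and 30.8 TPM in KO clones without glucose, against 38.5, 61.6 and 59.9 TPM with it. In WT clones it was at 24.9 and 28.3 TPM, against 41.8 and 50.8 TPM. It fell to 54.7% in KO and 57.5% in WT clones (limma adjusted p = 0.0102 and 0.0369). E2F2, a low transcript at 1.56 ± 0.607 TPM without glucose, against 5.14 ± 0.848 TPM with it, in KO clones (SD, n = 3), kept 30.4% of its level there and 31.6% in WT clones, the lowest shares of the 59 genes.

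The cyclin E genes CCNE1 and CCNE2, whose products activate CDK2, had fold changes of opposite signs. CCNE1 was at 11.7, 15.4 and 9.49 TPM in KO clones without glucose, against 8.34, 8.61 and 8.38 TPM with it. In WT clones CCNE1 was at 17.3 and 19.9 TPM, against 9.16 and 9.94 TPM. Within each genotype, all libraries without glucose lay above those with it. CCNE1 rose by 0.89 in WT clones (SE 0.19, limma adjusted p = 0.0124), a call lost without any 1 of the 4 WT libraries (adjusted p = 0.055 to 0.0894). In KO clones the log2 fold change of CCNE1 was 0.46 (adjusted p = 0.0555), and with the clone as a block it passed the threshold (adjusted p = 0.0203), as it did without KO clone 3 at 0 g/liter, with the filter at a mean of 5 TPM and after either of the other scalings. CCNE2, the other cyclin E, was at 14.6, 13.7 and 12.2 TPM in KO clones without glucose, against 21.1, 18.7 and 19.5 TPM with it, and fell by 0.52 (limma adjusted p = 0.00557). Its level in WT clones was 19.4 and 19.8 TPM, against 21.5 and 22.2 TPM, with a log2 fold change of -0.15 that was not called (adjusted p = 0.416) and that was 0.06 after median-ratio scaling.

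The genotypes were compared at each glucose level, which addresses whether loss of BACH1 itself moved these genes. None of the 59 genes was called in KO against WT clones at 4.5 g/liter by limma, where 0.0745% of all tested genes were called, and 1 had an unadjusted p under 0.05, against 3.17% of all tested genes. At 0 g/liter none was called, against 0.0373%, and 3 had an unadjusted p under 0.05, against 2.9%. The medians over the 59 genes were -0.06 without glucose and -0.05 with it, beside -0.02 and -0.03 over all tested genes. The 95% interval of the difference had a median half-width of 0.33 on the log2 scale, and it lay within 0.5 of 0 on both sides for 36 genes without glucose and 41 with it. Larger differences are not excluded for the rest.

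Without glucose, CCNE2 had 14.6, 13.7 and 12.2 TPM in KO clones, against 19.4 and 19.8 TPM in WT clones, which did not overlap. The difference was -0.51 (95% interval -0.77 to -0.26, unadjusted p = 0.00134), with a limma adjusted p of 0.748. CCNE1 had 11.7, 15.4 and 9.49 TPM in KO clones, against 17.3 and 19.9 TPM in WT clones, and differed by -0.59 (95% interval -0.99 to -0.19, limma unadjusted p = 0.0081, adjusted p = 1). Both cyclin E genes were thus lower in the KO clones, before adjustment for the number of genes. MCM10 also had an unadjusted p under 0.05, with a difference of -0.34 (95% interval -0.68 to -0.00, limma unadjusted p = 0.0495, adjusted p = 1).

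With glucose, CDT1 had 16.4, 18.3 and 17.7 TPM in KO clones, against 25 and 22.4 TPM in WT clones, and the groups did not overlap. Its difference was -0.42 (95% interval -0.73 to -0.11, limma unadjusted p = 0.0127, adjusted p = 1). MCM2 went the other way, with 66.0, 79.2 and 80.2 TPM in KO clones, against 59.3 and 64.2 TPM in WT clones (0.27, 95% interval -0.04 to 0.59, limma unadjusted p = 0.0794, adjusted p = 1).

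**Figure D4:**
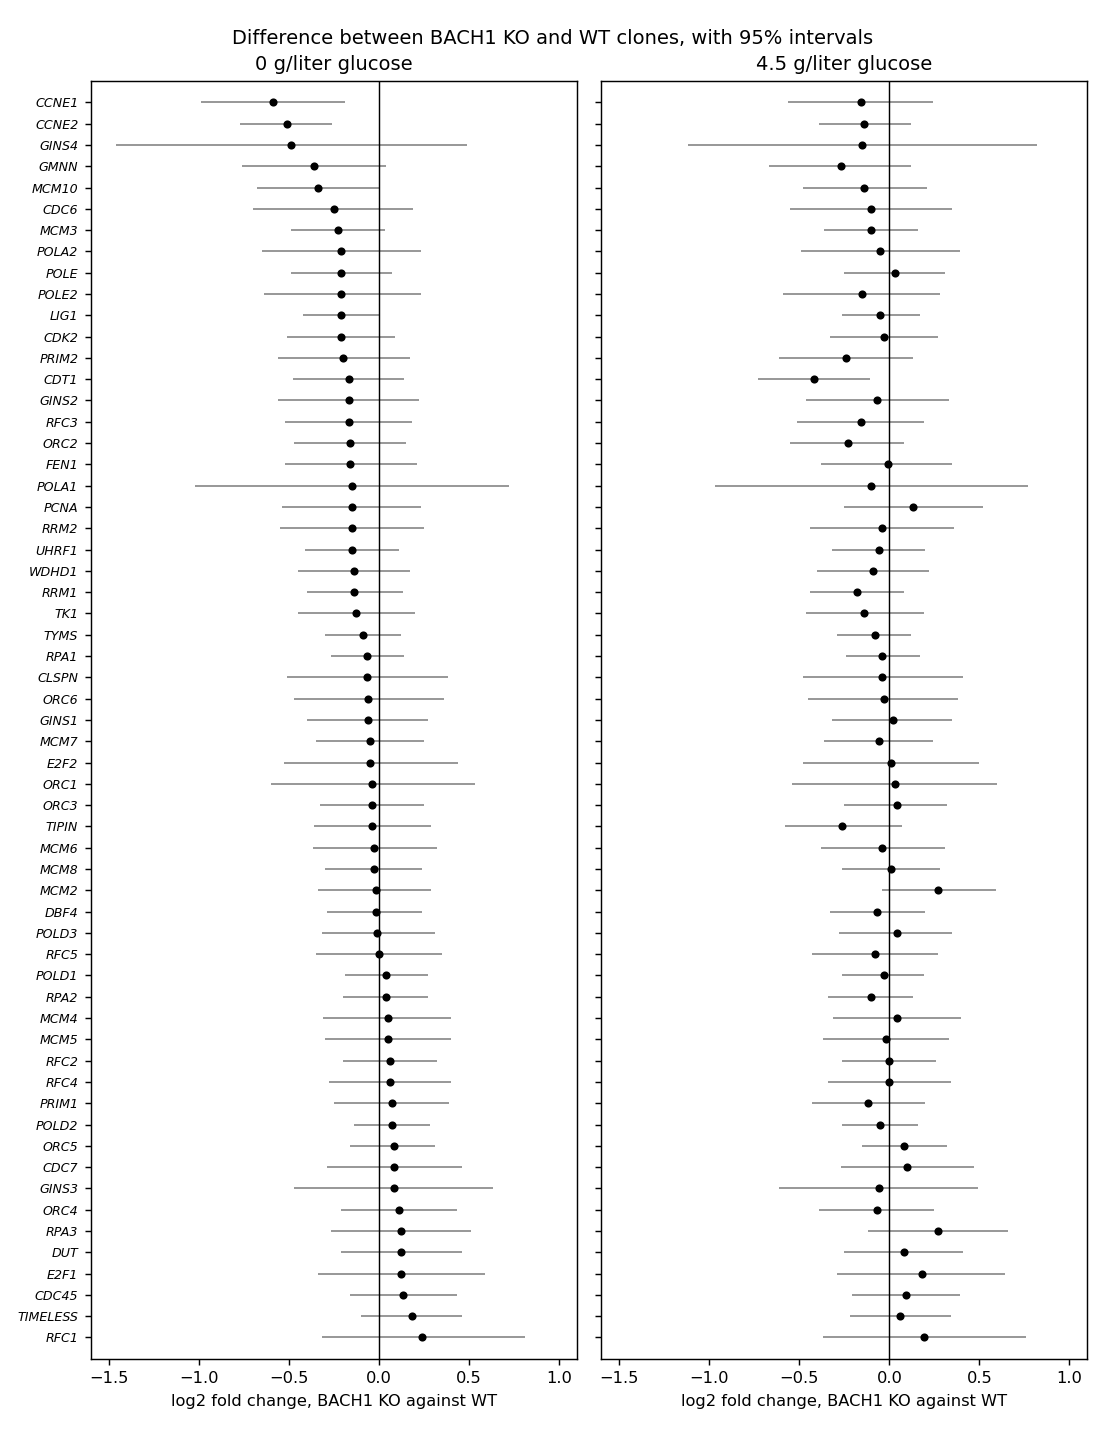
Difference between BACH1 KO and WT clones in log2(TPM + 1) for each of the 59 genes at 0 g/liter (left) and 4.5 g/liter (right), with 95% intervals from limma as bars. Nearly all intervals include 0, and CCNE1 and CCNE2 lie lowest without glucose, at -0.59 and -0.51.

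The responses to glucose removal were also set against each other. None of the 59 genes was called for a difference between the responses of KO and WT clones by limma, where 0.00745% of all tested genes were called, and 1, CCNE2, had an unadjusted p under 0.05, against 1.01% of all tested genes. The response of CCNE2 was more negative in KO than in WT clones by 0.37 (95% interval -0.73 to -0.01, unadjusted p = 0.0437, limma adjusted p = 1). For CCNE1 the difference of the responses was -0.43 (95% interval -1.0 to 0.13, unadjusted p = 0.116). The intervals of these differences were wider, with a median half-width of 0.47, and 19 of the 59 lay within 0.5 of 0 and 57 within 1. They come from the fit without the clone as a block and so do not use the pairing of libraries within a clone. No interval was computed with the block. Across the 59 genes the fold changes of the genotypes, which come from separate libraries, had a Pearson r of 0.937 and a Spearman rho of 0.911, as a description over genes, which are not independent replicates.

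**Figure D5:**
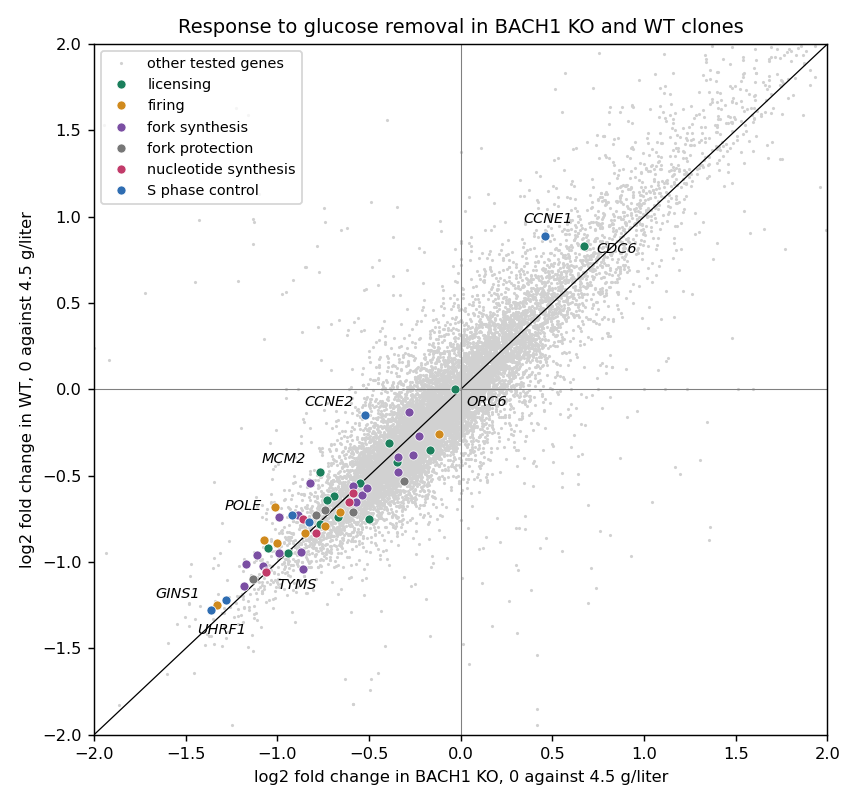
Log2 fold change at 0 against 4.5 g/liter in BACH1 KO (x axis) and WT clones (y axis) for the 59 genes, coloured by role, and other tested genes in grey, with the diagonal of equal change (187 genes beyond 2 on either axis are not drawn). The 59 genes lie along the diagonal, mostly at the lower left, with CDC6 and CCNE1 alone at the upper right.

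Other genes of the same processes were followed in lists that did not include the 59. For comparison, 19.9% of all tested genes were called lower and 9.05% higher in KO clones. In WT clones these shares were 15.9% and 7.47%. Of 19 further replication factors, 12 were called lower and 1 higher in KO clones, and 10 and 1 in WT clones, with medians of -0.53 and -0.56. DNMT1, the maintenance DNA methyltransferase, fell to 147 ± 8.18 TPM in KO clones without glucose, against 285 ± 21.6 TPM with it (SD, n = 3), and TICRR, a factor for origin firing, and DSCC1, a subunit of an alternative clamp loader, fell by 1.07 and 1.08 there on the log2 scale. The one called higher was TOP1, the topoisomerase that relaxes DNA ahead of forks, at 0.62 in KO (limma adjusted p = 0.00927) and 0.64 in WT clones (adjusted p = 0.0235). Of 10 chromatin assembly genes, 8 were called lower in KO and 7 in WT clones, led by the histone chaperone ASF1B (-1.21 and -1.20), with the chromatin remodeller HELLS at -1.03 and -0.78 and CHAF1A, which deposits histones on new DNA, at -0.80 and -0.88.

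Nucleotide genes outside the 5 members were followed as well. Of 15 salvage and deoxynucleotide genes, 5 were called lower in KO and 3 in WT clones and none higher. Among all tested genes 19.9% were called lower in KO and 15.9% in WT clones, so the WT count is near that share. The list medians were -0.16 and -0.27, close to those of all tested genes. DTYMK, thymidylate kinase, fell by 0.74 in KO and 0.82 in WT clones, DCK, deoxycytidine kinase, by 0.65 and 0.59, and DCTPP1 by 0.64 and 0.61. NME1 and NME2, which phosphorylate nucleoside diphosphates, had fold changes between -0.00 and 0.05 on the log2 scale. RRM2B, the reductase subunit used outside S phase, had -0.19 and -0.22 and was not called.

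Of 14 other E2F, DP and pocket protein genes, 7 were called lower and 1 higher in each genotype. The shares of all tested genes were 19.9% lower and 9.05% higher in KO clones, and 15.9% and 7.47% in WT clones. TFDP1, the dimer partner of E2F factors, fell to 63.1 ± 5.37 TPM in KO clones without glucose, against 120 ± 6.71 TPM with it (SD, n = 3), and E2F8 fell by 1.07 in KO and 1.04 in WT clones. E2F7 was the one called higher. It was at 59.9, 94.0 and 82.2 TPM in KO clones without glucose, against 37.8, 37.1 and 38.2 TPM with it, and at 74.5 and 74.6 TPM, against 36.8 and 36.5 TPM, in WT clones (log2 fold changes 1.02 and 1.01, limma adjusted p = 0.00144 and 0.00547). Of 10 S phase checkpoint genes, 5 were called lower and 1 higher in each genotype, among them the checkpoint clamp subunit RAD1 (-0.74 and -0.62), the ATR activator ETAA1 (-0.78 and -0.71) and the ATR partner ATRIP (-0.97 and -0.95) on the lower side. RAD9A, from the same clamp as RAD1, was the one called higher, at 0.57 in KO and 0.76 in WT clones.

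Of 12 G1 cyclins, their kinases and inhibitors, 9 could be tested (CCND2, CDKN2A and CDKN2B were too low). Of these, 2 were called higher and 3 lower in each genotype. Shares of all tested genes called higher and lower were 9.05% and 19.9% in KO clones, and 7.47% and 15.9% in WT clones. CDKN1A, which encodes the CDK inhibitor p21, was at 238, 365 and 169 TPM in KO clones without glucose, against 36.0, 24.9 and 22.6 TPM with it. In WT clones CDKN1A was at 382 and 347 TPM, against 35.9 and 36.0 TPM. It rose by 3.12 in KO (limma adjusted p = 0.000107) and 3.31 in WT clones (adjusted p = 0.000408), and CDKN1C, which encodes p57, by 1.23 and 1.45. CDKN2D, another inhibitor, fell by 1.13 and 0.94. The part of these inhibitors in the fall of the replication genes was not tested.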

How the data were processed

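The authors isolated total RNA with TRIzol, prepared TruSeq libraries, quantified the reads with kallisto 0.44.0 (build GRCh38.p12) and deposited the TPM of each gene symbol; the annotation release and the use of strand are not given in the sources used here. The submitters' processing notes also name bcl2fastq 2.19 and DESeq2. The table held 36459 symbols, and 27 of them, which had the form of dates, were not used. No sequencing depth can be had from TPM, so precision rests on the clones alone.

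A limma 3.58.1 model of log2(TPM + 1) in R 4.3.3 held the mean of each of the 4 groups, and its moderated two-sided tests allowed the spread to follow the level of a gene. It covered the 13418 genes that reached 1 TPM in 2 or more libraries, left 6 residual degrees of freedom, and had its p-values adjusted by Benjamini-Hochberg. It replaced the DESeq2 of the study because the file holds TPM, not counts. The fit was tested on simulated data with independent noise in each library and changes set only in KO clones at 0 g/liter. That run had no correlation within clones, so it did not check how the fit handles paired libraries. With 2 or 3 clones a group, exact permutation tests within a genotype or between genotypes at 1 glucose level cannot reach 0.05. None was run, also not over the 5 clones together. The members and lists were chosen with earlier results of these data known. Genes named with values in every library were the 3 called genes of each role with the largest change and a mean of at least 5 TPM, those called against the majority and, where none was called between genotypes, those with the 2 smallest p-values; of the other lists, the 3 genes with the smallest p and any called against its list. GINS4, POLA1 and ORC6 were added after their values were seen.

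Each clone gave a library with and without glucose, so clone numbers pair libraries within a genotype. The residuals of the paired libraries of a clone had correlations of 0.609, 0.426 and 0.507 for the KO clones and 0.0991 for the WT clones. With 2 WT clones the residuals mirror each other, so both WT clones give the same value by construction. Equal numbers across genotypes name different clones. Alternatives were another pseudocount, other filters, 2 scalings, the clone as a block, no trend and leaving out each library.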

Additional observations from a re-analysis of the deposited data

How the results depend on the processing

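The number of the 59 genes called lower without glucose was 47 in KO and 43 in WT clones. It was 47 and 43 with a pseudocount of 0.1, 45 and 39 with no filter, 46 and 43 with a mean of at least 5 TPM (which leaves E2F2 out), 42 and 36 after quantile normalization, 40 and 29 after median-ratio scaling, and 45 and 41 without the trend. Leaving out each of the 10 libraries in turn gave 41 to 48 genes in KO and 13 to 45 in WT clones, the low end without a WT library. A fit that leaves 1 library in a group also has less power. With the clone as a paired block, 52 and 50 genes were called lower, no call of the unblocked fit was lost, and the added calls in WT clones use a spread pooled over both genotypes. No called gene changed direction in any alternative, and none of the 59 was called between genotypes or for a difference of responses in any of them. Groups of 2 and 3 clones and unknown depth limit the precision of low genes such as E2F2.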

Other observations

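Genes of mitosis, which follow replication in the cell cycle, fell further than the replication genes. All 21 on the list were called lower in each genotype, against 19.9% of all tested genes in KO and 15.9% in WT clones. Median log2 fold changes were -1.16 in KO and -1.12 in WT clones, where the 59 replication genes had -0.74 and -0.71. TOP2A, the topoisomerase that untangles sister chromosomes, fell to 126 ± 6.38 TPM in KO clones without glucose, against 346 ± 7.44 TPM with it (SD, n = 3), and to 127 ± 5.22 TPM, against 321 ± 12.4 TPM, in WT clones (SD, n = 2). PLK1, a mitotic kinase, fell by 1.36 in KO and 1.43 in WT clones on the log2 scale (limma adjusted p = 1.16e-05 and 4.44e-05), and CENPF, a kinetochore protein, had log2 fold changes of -1.18 and -0.98. The difference between the mitosis and replication lists was not tested.

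The pathways that build nucleotides from small molecules fell in part. Their counts stand against 19.9% of all tested genes called lower in KO and 15.9% in WT clones. Of 13 de novo purine genes, 7 were called lower and none higher in each genotype, with medians of -0.32 in KO and -0.42 in WT clones. PAICS, an enzyme of the middle of the pathway, fell to 125 ± 13.0 TPM in KO clones without glucose, against 191 ± 1.1 TPM with it (SD, n = 3), PFAS fell by 0.81 and 0.82, and PRPS1, which makes the sugar phosphate donor, by 0.56 and 0.67. PPAT, GART and ATIC were not called, with log2 fold changes between -0.26 and -0.03. Of 5 de novo pyrimidine genes, 3 were called lower in KO and 2 in WT clones. CAD, which starts the pathway, fell by 0.81 and 0.90 and UMPS, which ends it, by 0.81 and 0.83, while DHODH was called in KO clones alone (-0.54 and -0.36).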
